A study of Mus musculus with 6 samples.

Results

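The 10 genes described here mark mouse spermatogonial stem cells and depend on, or act beside, glial cell line-derived neurotrophic factor (GDNF): Gfra1, Ret, Etv5, Bcl6b, Lhx1, T, Eomes, Id4, Zbtb16 and Pax7. They were chosen by gene symbol from the deposited table, and all 10 were found among its 55401 genes. The table holds polyadenylated RNA of 6 libraries, 3 titled SSCs and 3 titled iNSCs. SSCs are cultured spermatogonial stem cells from the testis of 6-day-old male mice, kept on STO feeders, an inactivated mouse fibroblast line, in medium with 10% serum, GDNF at 20 ng/mL, EGF at 20 ng/mL, LIF at 10 ng/mL and bFGF at 10 ng/mL. iNSCs are neural stem cell-like cells made from such cells over 6 days. For this the cells were replated on laminin and kept in the same medium with 1 µM retinoic acid for 24 h. They were then moved to an N2 and B27 medium with bFGF at 20 ng/mL, 1% serum and 10 µM SB431542, an inhibitor of TGF-beta type I receptors, for which the labels list no GDNF, EGF or LIF. Feeders, serum, retinoic acid, inhibitor, GDNF, EGF, LIF, the bFGF dose and the basal medium therefore change together, and their shares in any difference cannot be told apart. No strain is given, all samples are labelled male, and nothing in the labels ties the replicates to separate cultures or animals. The p-values then cover only the spread between these libraries, which may be technical.

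GDNF is secreted by somatic cells around the seminiferous tubules, mainly Sertoli and peritubular myoid cells. It binds the co-receptor GFRA1, and the complex activates the receptor tyrosine kinase RET on undifferentiated spermatogonia. Through SRC family, PI3K and ERK signalling RET keeps up a set of transcription factors, among them ETV5, BCL6B, LHX1, Brachyury (T) and ID4, and mice that lose the signal lose their stem cells. ZBTB16 (PLZF), EOMES and PAX7 are transcription factors used to mark undifferentiated spermatogonia or subsets of them and are not all held to be direct GDNF responses.

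Libraries held 18058551 to 20156067 counts. Levels below are FPKM, counts scaled for exonic length and library total, as deposited. Differences are log2, iNSCs minus SSCs, from edgeR on the counts with TMM scaling, with a standard error (SE). A gene counts as called lower or higher where its difference is 1 or more in size and its adjusted p (Benjamini-Hochberg) is under 0.05, and rose or fell means the same. The 12 germ cell genes used as a reference, none of them a member, had a geometric mean of 159, 172 and 164 scaled CPM (counts brought to a common library size by TMM) in SSCs replicates 1, 2 and 3 and of 3.48, 5.06 and 3.81 in iNSCs, and all 12 were called lower. The cell type label names the opposite group for all 6 samples, while titles and source names go with the germ cell genes and were followed. Neural stem cell markers were split in the iNSCs: Nes (104, 103 and 95.8 FPKM) and Prom1 (24.1, 29.9 and 30.0 FPKM) were high there. Sox2 (0.05, 0.02 and 0 FPKM) and Sox1, Nr2e1 and Hes5 (0 FPKM in each) were at or near 0. The epithelial keratin Krt8 reached 1116, 1232 and 1302 FPKM in iNSCs, against 4.43 to 7.20 FPKM in SSCs. SSCs replicate 3 stood apart from the other SSC libraries: the summed level of 16 fibroblast and feeder markers was 695, 640 and 108 FPKM in SSCs replicates 1, 2 and 3 and 191 to 236 FPKM in iNSCs. Values without that library are therefore given for each member.

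All 10 genes fell in the iNSCs, and 0 rose. Across the 17387 genes tested, 27.6% were called lower and 25.7% higher. In all 10 every SSC library lay above every iNSC library, as in 40.5% of tested genes. The members fell into a group that kept a sizeable share of its SSC level, Etv5 (39.6%), Ret (19.9%) and Id4 (17.2%), and a group left at under 3% of it: Eomes (2.89%), Bcl6b (1.33%), Zbtb16 (0.875%), Lhx1 (0.671%), T (0.633%), Gfra1 (0.368%) and Pax7 (no count in any iNSC library). These shares compare mean scaled CPM. In bulk RNA fewer cells that express a gene and less RNA per cell cannot be told apart. All 10 passed the filter on low counts, but Gfra1, Lhx1, T, Eomes and Pax7 had under 10 counts in at least 1 iNSC library and passed through the SSC libraries alone, so the count of 10 is a description of the members and supports nothing further.

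**Figure D1:**
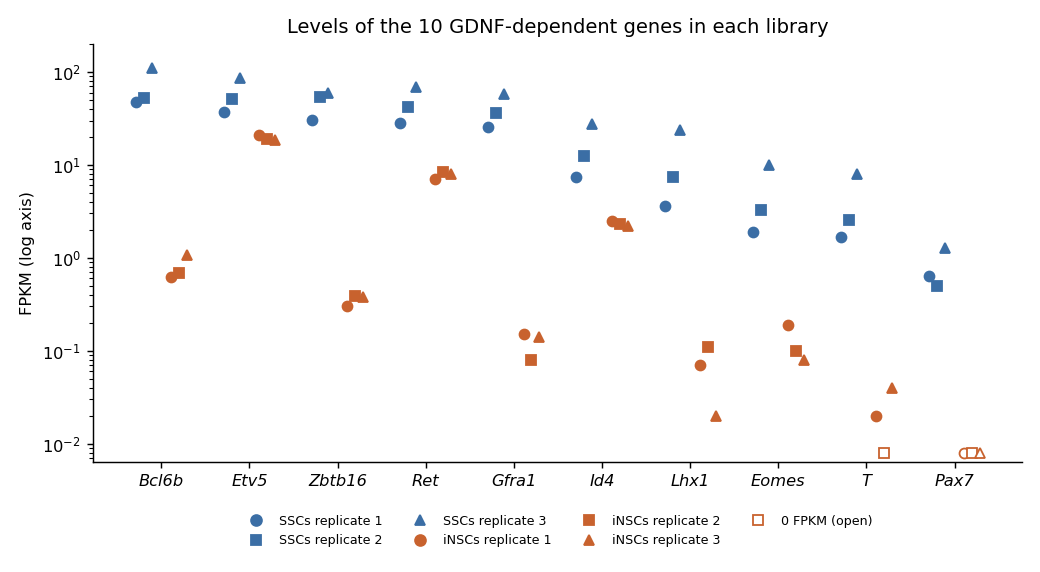
FPKM (log axis) of each gene in the 3 SSC libraries (blue) and the 3 iNSC libraries (orange), 1 point per library, with open symbols for 0 FPKM and genes in order of their SSC mean. The SSC points lie above the iNSC points for every gene, SSCs replicate 3 is the highest point of each gene, and Etv5, Ret and Id4 keep the highest iNSC levels, at means of 19.6, 7.81 and 2.34 FPKM.

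The receptor pair separated. Gfra1 (ENSMUSG00000025089, GRCm38 chr19:58235604-58455909, minus strand), the GPI-anchored co-receptor that binds GDNF, stood at 25.6, 36.5 and 58.0 FPKM in SSCs replicates 1, 2 and 3 and at 0.15, 0.08 and 0.14 FPKM in the iNSCs. The groups were far apart, with only 40 Gfra1 counts in the 3 iNSC libraries together against 12261 in the SSCs. The log2 difference was -8.07 (SE 0.46, edgeR adjusted p 7.81e-06), and -7.68 without SSCs replicate 3. Ret (ENSMUSG00000030110, chr6:118151745-118197718, minus strand), the receptor tyrosine kinase that signals for all GDNF family ligands, stood at 28.1, 41.6 and 68.7 FPKM in SSCs and at 7.05, 8.30 and 8.07 FPKM in iNSCs. Its groups did not overlap either, but the lowest SSC library was only 2.73 times the highest iNSC library in scaled CPM, where for Gfra1 that ratio was 140. The log2 difference of Ret was -2.33 (SE 0.34, edgeR adjusted p 5.44e-04), and -1.89 without SSCs replicate 3. Within each SSC library Ret lay above Gfra1 in FPKM, while in the iNSCs Ret was behind Etv5 alone and Gfra1 was among the 5 lowest members.

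Among the factors that GDNF induces in cultured spermatogonia, Etv5 (ENSMUSG00000013089, chr16:22381309-22439719, minus strand), an ETS family factor also induced by FGF signalling and required for stem cell self-renewal, fell least of the 10 members. It stood at 37.2, 51.0 and 86.2 FPKM in SSCs and at 21.2, 19.0 and 18.5 FPKM in iNSCs, the highest iNSC level of any member. The groups came close without overlapping, the lowest SSC library being 1.42 times the highest iNSC library in scaled CPM. The log2 difference was -1.34 (SE 0.31, edgeR adjusted p 0.00564). Without SSCs replicate 3 it was -0.91 (edgeR adjusted p 6.64e-04), which no longer meets the size threshold, so the call of Etv5 rests on that library. Its closest relative Etv4, also of the PEA3 group, had a log2 difference of -0.98 (SE 0.25, edgeR adjusted p 0.0087) and was not called, at 28.5, 30.5 and 51.3 FPKM in SSCs and 17.0, 15.1 and 15.4 FPKM in iNSCs.

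Bcl6b (ENSMUSG00000000317, chr11:70224128-70229798, minus strand), a zinc finger repressor related to BCL6, had the highest SSC mean of the 10 at 70.3 ± 35.6 FPKM (SD, n = 3). Its libraries stood at 47.0, 52.7 and 111 FPKM in SSCs and at 0.62, 0.69 and 1.08 FPKM in iNSCs. No iNSC library came near any SSC library, and the log2 difference was -6.22 (SE 0.48, edgeR adjusted p 2.68e-05), or -5.69 without SSCs replicate 3. Its relative Bcl6 was not called, with a log2 difference of 0.25 (SE 0.13, edgeR adjusted p 0.131).

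Lhx1 (ENSMUSG00000018698, chr11:84518284-84525535, minus strand), a LIM homeodomain factor, stood at 3.60, 7.47 and 24.0 FPKM in SSCs and at 0.07, 0.11 and 0.02 FPKM in iNSCs. It varied most among the SSC libraries of all 10, and only 16 counts remained in the iNSCs together. The log2 difference was -7.19 (SE 0.98, edgeR adjusted p 4.10e-04), or -6.07 without SSCs replicate 3. Of 10 other LIM homeobox genes tested, 9 were called lower and 0 higher, beside 27.6% and 25.7% of all tested genes. Most of them fell from levels of a few FPKM or less. Lhx4, Lhx8, Isl1, Isl2 and Lmx1a had 0 to 3 counts each in the iNSCs together. These passed the filter on low counts through the SSC libraries alone, so the count of 9 is a description and supports nothing further. T (ENSMUSG00000062327, chr17:8434423-8442496, plus strand), the T-box factor Brachyury, stood at 1.69, 2.56 and 7.94 FPKM in SSCs and at 0.02, 0 and 0.04 FPKM in iNSCs. That is 527 counts against 3, a ratio of scaled counts of 153 with a 95% Clopper-Pearson interval of 52.1 to 745, which covers counting error only. The fitted log2 difference of T was -7.14 (SE 1.00, edgeR adjusted p 4.78e-04). Leaving out SSCs replicate 3 gave -6.16. Leaving out iNSCs replicate 3, which holds 2 of the 3 iNSC counts, gave -7.95.

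Id4 (ENSMUSG00000021379, chr13:48261228-48266026, plus strand) encodes an inhibitor of basic helix-loop-helix factors and is highest, in the mouse testis, in the spermatogonia with most stem cell activity. It stood at 7.39, 12.5 and 27.7 FPKM in SSCs and at 2.51, 2.31 and 2.19 FPKM in iNSCs. The lowest SSC library was 2.38 times the highest iNSC library in scaled CPM, so the groups did not overlap. The log2 difference was -2.54 (SE 0.48, edgeR adjusted p 0.00216), or -1.82 without SSCs replicate 3. The other 3 genes of the family went the opposite way. Id1, a target of BMP signalling in many cells, had 38.2, 33.3 and 25.4 FPKM in SSCs and 205, 191 and 203 FPKM in iNSCs, a log2 difference of 2.88 (SE 0.14, edgeR adjusted p 4.78e-06). Id2 rose by 4.89 on the log2 scale (SE 0.36, edgeR adjusted p 2.20e-05) and Id3 by 2.29 (SE 0.38, edgeR adjusted p 0.00104). Exons of Id4 share 82 and 171 bases with genes on the opposite strand that had 0 to 16 counts per library, where Id4 had 170 to 1995.

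Zbtb16 (ENSMUSG00000066687, chr9:48654297-48836222, minus strand) encodes PLZF, a transcriptional repressor needed to maintain spermatogonial stem cells. It stood at 30.5, 53.7 and 59.7 FPKM in SSCs and at 0.30, 0.39 and 0.38 FPKM in iNSCs. It was the most even member among the SSC libraries, and its log2 difference was -6.83 (SE 0.35, edgeR adjusted p 5.32e-06), or -6.62 without SSCs replicate 3. Eomes (ENSMUSG00000032446, chr9:118478212-118486132, plus strand), a T-box factor found in part of the GFRA1-positive spermatogonia, stood at 1.91, 3.27 and 9.90 FPKM in SSCs and at 0.19, 0.10 and 0.08 FPKM in iNSCs. The groups were apart, at a log2 difference of -5.10 (SE 0.78, edgeR adjusted p 7.15e-04), or -4.10 without SSCs replicate 3. An antisense gene, Gm33460, shares 118 exonic bases with Eomes and had 11, 6 and 36 counts in the SSCs, where Eomes had 154, 245 and 770.

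Pax7 (ENSMUSG00000028736, chr4:139737062-139833528, minus strand), a paired box factor that marks a rare spermatogonial subset in mice, was the lowest member, at 0.63, 0.50 and 1.27 FPKM in SSCs and 0 FPKM in each iNSC library. With 263 counts against 0, it was at least 76.5-fold lower in iNSCs, taking 3 counts over the group as the limit that a count of 0 allows. It was called lower (edgeR adjusted p 6.06e-04, and 1.34e-04 without SSCs replicate 3), but its fitted difference depends on the prior count and is no measure of size. Pax2 and Pax8 went the opposite way. Pax2 rose by 5.52 on the log2 scale (SE 0.42, edgeR adjusted p 2.53e-05), from 0.06, 0.13 and 0.24 FPKM in SSCs to 5.11, 5.56 and 6.02 FPKM in iNSCs. Pax8 rose by 5.80 (SE 0.19, edgeR adjusted p 1.29e-06), to 24.9, 27.9 and 28.8 FPKM. Both are factors of the developing kidney, and Pax8 is also one of the thyroid. Pax6, a factor of neural progenitors, stood at 0.02 to 0.04 FPKM in iNSCs and 0.05 to 0.12 FPKM in SSCs.

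**Figure D2:**
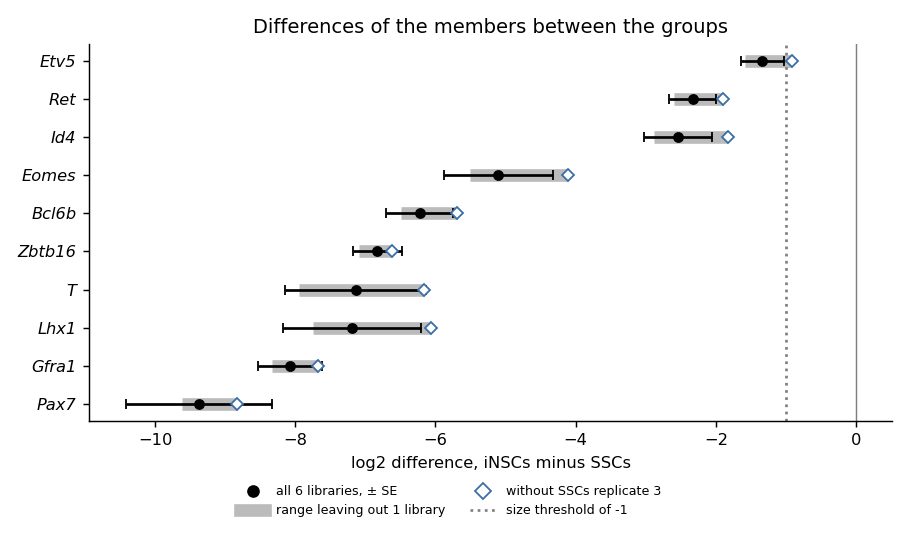
Log2 difference (iNSCs minus SSCs) of each gene with its SE from the edgeR fit on all 6 libraries (black), the range when each library is left out in turn (grey bar) and the value without SSCs replicate 3 (open diamond), with the size threshold of -1 dotted. Each gene stays below 0, Etv5 crosses the threshold to -0.91 without SSCs replicate 3, and the point of Pax7 depends on the prior count because its iNSC counts are 0.

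Promoter sequence is shown for genes that kept a level and for genes that were nearly lost. RefSeq windows on GRCm38.p6, from 250 bases before to 50 after a start, were at hand for 7 of the 10 genes (8 windows, 2 of them for Etv5), with none for Ret, Bcl6b and Zbtb16. The following 4 are shown 5′ to 3′ on the gene's strand, Etv5 and Id4 for the genes that kept 39.6% and 17.2% of their SSC level, and Gfra1 and T for those left at 0.368% and 0.633%. Capitals mark E-boxes (CANNTG, the kind of site bound by the helix-loop-helix factors that ID proteins inhibit) and GC boxes (GGGCGG or its complement), each searched on both strands.
Etv5 (chr16:22439521-22439820, minus strand): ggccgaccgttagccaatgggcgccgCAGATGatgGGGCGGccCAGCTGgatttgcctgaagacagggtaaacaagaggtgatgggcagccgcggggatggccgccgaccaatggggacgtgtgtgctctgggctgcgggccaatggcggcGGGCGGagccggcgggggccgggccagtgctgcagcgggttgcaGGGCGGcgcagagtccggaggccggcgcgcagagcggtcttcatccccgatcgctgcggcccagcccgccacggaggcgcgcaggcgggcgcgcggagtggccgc
Id4 (chr13:48260866-48261165, plus strand): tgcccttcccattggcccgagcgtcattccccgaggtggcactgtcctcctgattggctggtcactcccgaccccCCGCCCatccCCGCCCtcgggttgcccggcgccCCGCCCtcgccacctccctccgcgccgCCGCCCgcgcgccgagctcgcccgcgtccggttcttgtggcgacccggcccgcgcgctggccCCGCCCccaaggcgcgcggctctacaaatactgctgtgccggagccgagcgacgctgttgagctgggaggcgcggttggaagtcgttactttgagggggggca
Gfra1 (chr19:58455349-58455648, minus strand): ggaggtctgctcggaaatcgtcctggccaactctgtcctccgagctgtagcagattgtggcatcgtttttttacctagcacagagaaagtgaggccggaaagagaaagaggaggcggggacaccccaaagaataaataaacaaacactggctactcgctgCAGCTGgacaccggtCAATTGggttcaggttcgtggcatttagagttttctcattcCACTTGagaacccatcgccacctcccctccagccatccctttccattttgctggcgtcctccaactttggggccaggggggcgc
T (chr17:8434173-8434472, plus strand): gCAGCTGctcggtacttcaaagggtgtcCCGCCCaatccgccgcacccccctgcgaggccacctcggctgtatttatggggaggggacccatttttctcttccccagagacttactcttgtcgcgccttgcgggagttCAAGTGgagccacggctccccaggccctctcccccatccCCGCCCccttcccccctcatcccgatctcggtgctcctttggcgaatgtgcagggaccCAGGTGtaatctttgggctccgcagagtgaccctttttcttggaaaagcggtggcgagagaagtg
E-box letters lie 2 times in the Etv5 window, 3 times in that of Gfra1, 3 times in that of T and 0 times in that of Id4, and 72.3% of 32851 RefSeq mouse windows of this length hold at least 1. GC box letters lie 3 times in Etv5, 5 times in Id4, 2 times in T and 0 times in Gfra1, against 35.7% of all windows with at least 1. The GC content was 74.0% for Etv5, 73.3% for Id4, 61.7% for T and 54.0% for Gfra1, beside a median of 52.7% over all windows. The other windows do not follow a split by level. The second Etv5 window had 0 E-boxes, 0 GC boxes and 60.0% GC. Of the nearly lost genes not shown, Lhx1 had 65.7% GC and 0 GC boxes, Pax7 63.7% and 1, and Eomes 47.3% and 0, and none of these 3 had an E-box. The ETS letters CCGGAAG (8.86% of all windows) and the T-box letters AGGTGTG (5.84%) were found in none of the 8 member windows. These are matches of letters in 300 bases and say nothing of binding.

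Within the SSC group the members varied more than most genes, and nearly all in the same way. All 10 had their highest scaled CPM in SSCs replicate 3, as did 38.0% of the 15854 tested genes with at least 10 counts in each SSC library. In 9 of the 10 the lowest was replicate 1, as in 37.6% of those genes, with Pax7, lowest in replicate 2, as the exception. The highest library was more than 2 times the lowest for all 10, which held for 20.7% of genes. The ratio of highest to lowest ranged from 2.13 for Zbtb16 to 7.27 for Lhx1, with a median of 2.65 over the members and of 1.43 over all those genes. It was above 4 for Lhx1 (7.27), Eomes (5.64), T (5.10) and Id4 (4.08) and between 2 and 3 for the other 6. The ratio of SSCs replicate 3 to replicate 1 had a 95% Clopper-Pearson interval of 6.41 to 8.26 for Lhx1, of 2.36 to 2.59 for Gfra1 and of 1.65 to 2.98 for Pax7, the member with fewest counts. All 3 intervals, which cover counting error only, lie above 1. Being 3 libraries of a single group, the SSCs allow no test of this spread.

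The other gene lists differed in how they moved among the SSC libraries. The germ cell reference was nearly level, at 159, 172 and 164 scaled CPM. Genes of differentiating spermatogonia were lowest in replicate 3 in 9 of 12, among them Stra8, a meiosis gene induced by retinoic acid, at 65.8, 35.3 and 15.9 FPKM, and Sohlh1 at 165, 121 and 69.7 FPKM. Sohlh2, also of the 9, was nearly level at 76.6, 76.0 and 70.2 FPKM. The other 3, Ccnd2, Rhox13 and Prdm9, were highest in replicate 3 in scaled CPM, with Ccnd2 at 36.7, 45.8 and 90.5 FPKM. Fibroblast and feeder markers were lowest in replicate 3 in 12 of the 14 with enough counts, with the sums of 695, 640 and 108 FPKM given above. Among them, Col1a1 stood at 189, 168 and 23.0 FPKM and Postn at 12.3, 9.67 and 0.49 FPKM, while Dcn (1.68, 0.23 and 2.91 FPKM) and Pdgfra (5.16, 4.19 and 5.27 FPKM) did not share the low value. Smooth muscle and myoid markers were lowest in replicate 3 in 6 of 6, with a sum of 571, 500 and 24.8 FPKM in SSCs and 259 to 307 FPKM in iNSCs. The share of all genes lowest in replicate 3 was not computed, so these counts are descriptions without a background. Summed Sertoli cell markers were at 357, 70.9 and 124 FPKM in SSCs and 718 to 910 FPKM in iNSCs. Clu made up most of each sum, at 279.73, 44.18 and 94.97 FPKM in SSCs and 546.84, 750.45 and 713.04 FPKM in iNSCs. Of the 9 markers tested, 7 were called higher in iNSCs and 2 lower, Rhox5 and Defb36, beside 25.7% and 27.6% of all tested genes. Amh, Fshr and Cst9 were too low to be tested, so the sum is no measure of Sertoli cell content. The part of these other cells in the spread of the members was not tested.

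**Figure D3:**
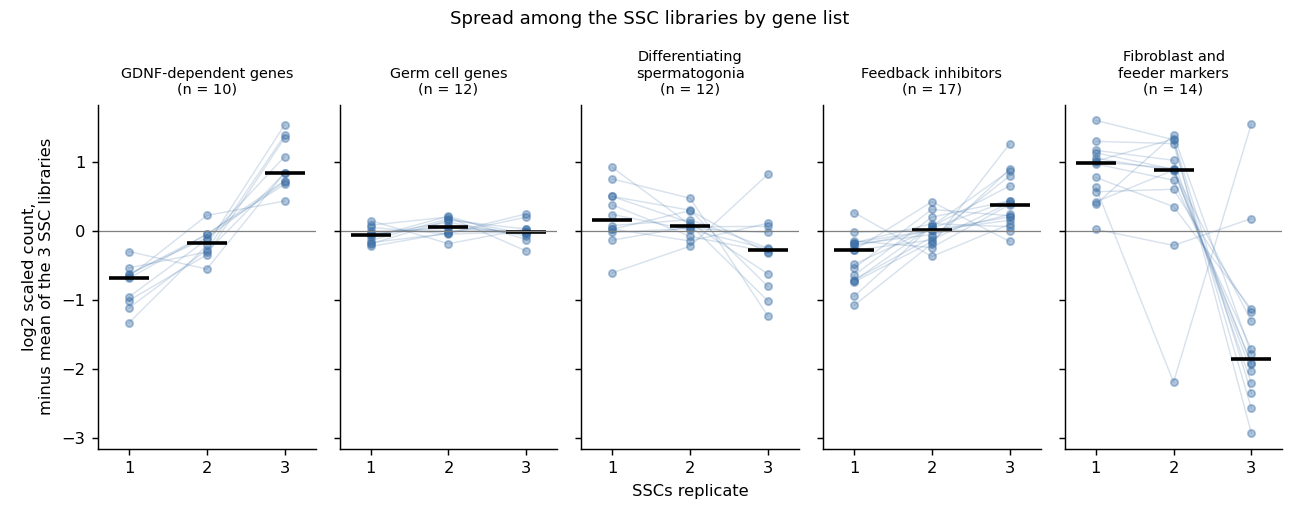
Log2 scaled CPM of each gene in SSCs replicates 1, 2 and 3, minus its mean over the 3 libraries, for 5 gene lists, with thin lines joining the points of a gene and black bars for the list median. The 10 GDNF-dependent genes are all highest in replicate 3, the 12 germ cell genes are nearly level, and the fibroblast and feeder markers are mostly lowest there.

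Negative feedback genes of the ERK pathway, which are induced by the signal they dampen and serve as readouts of it, were highest in SSCs replicate 3 in 12 of 17. The share among tested genes with at least 10 counts in each SSC library was 38.0%. Dusp6, an ERK phosphatase, stood at 37.5, 72.3 and 121 FPKM in SSCs and at 49.2, 49.0 and 48.5 FPKM in iNSCs. Spry4, an inhibitor of receptor tyrosine kinase signalling, stood at 7.30, 12.9 and 33.8 FPKM in SSCs and at 10.9, 9.27 and 8.91 FPKM in iNSCs. For both genes the iNSC libraries lay inside the range of the SSC libraries, and neither was called (edgeR adjusted p 0.352 and 0.274). Dusp6 and Spry4 were picked out after their values were seen. Of the 17 genes tested, 2 were called lower and 4 higher in iNSCs, and the median log2 difference was 0.02, beside -0.05 over all genes. Dusp9 fell by 3.64 on the log2 scale (SE 0.17, edgeR adjusted p 3.61e-06) and Il17rd (SEF) by 2.49 (SE 0.36, edgeR adjusted p 5.61e-04). Spred3, Dusp4, Spry1 and Spry2 rose, by 2.15 (SE 0.19), 1.57 (SE 0.38), 1.49 (SE 0.11) and 1.03 (SE 0.23). Gfra1 and Ret fell in the iNSCs, while 11 of the 17 feedback genes did not pass the test in either direction.

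Of 9 further GDNF-responsive genes, 6 were called lower and 1 higher, beside 27.6% and 25.7% of all tested genes. In SSCs replicate 3, 7 were highest, beside 38.0% of tested genes with at least 10 counts in each SSC library. Nanos2, a translational repressor that holds spermatogonia undifferentiated, stood at 4.49, 6.38 and 6.60 FPKM in SSCs and at 0 FPKM in each iNSC library, at least 148-fold lower. Egr2 fell by 5.92 on the log2 scale (SE 0.47, edgeR adjusted p 3.19e-05), from 15.9, 38.3 and 44.8 FPKM to 0.42, 0.45 and 0.51 FPKM. Egr3, like Egr2 an early response factor, was at 2.19, 13.2 and 38.6 FPKM in SSCs, a wider spread than that of any member, and at 0.52 to 0.55 FPKM in iNSCs. Its difference was -4.84 (SE 1.00, edgeR adjusted p 0.00321). Pou3f1 (-4.69, SE 0.26), Cxcr4 (-4.14, SE 0.51) and Fos (-2.24, SE 0.40) also fell. Tspan8, a tetraspanin of stem cell-rich spermatogonia that many epithelia also express, rose by 4.11 (SE 0.42, edgeR adjusted p 1.03e-04). Mycn and Ccnd2 were not called. Leaving out SSCs replicate 3 gave the same counts of 6 and 1.

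The ligands and the other receptors of the family moved in both directions, with 3 of 10 tested lower and 3 higher, shares near those of all tested genes. Gdnf itself was not called (log2 difference 0.83, SE 0.45, edgeR adjusted p 0.134). Its own transcript stood at 0.74, 1.37 and 2.76 FPKM in SSCs and at 2.36, 2.72 and 2.32 FPKM in iNSCs, so the groups overlapped. Gdf15, a distant TGF-beta family ligand whose receptor GFRAL also works through RET, stood at 4.21, 1.50 and 1.59 FPKM in SSCs and at 362, 381 and 420 FPKM in iNSCs, a rise of 7.58 (SE 0.44, edgeR adjusted p 8.16e-06), while Gfral had 0 FPKM in all 6 libraries. Artn, the artemin ligand, rose by 3.20 (SE 0.23, edgeR adjusted p 2.15e-05), from 0.41 to 0.56 FPKM to 3.24 to 4.01 FPKM. Its co-receptor Gfra3 fell by 6.66 (SE 0.76, edgeR adjusted p 1.72e-04), from 11.0, 9.26 and 2.78 FPKM to 0.13, 0.03 and 0.02 FPKM. Gfra2, the neurturin co-receptor, rose by 1.83 (SE 0.39, edgeR adjusted p 0.00376) to 1.04, 1.17 and 1.18 FPKM, and Gfra4 fell by 1.33 (SE 0.27, edgeR adjusted p 0.00308). The highest level of any GFRA co-receptor in an iNSC library was 2.51 FPKM, for Gfra4. Ncam1, an alternative GDNF receptor, fell by 2.19 (SE 0.60, edgeR adjusted p 0.0124), but its SSC level was 8.40, 11.1 and 1.54 FPKM, low in replicate 3 like the fibroblast markers. Nrtn, Sdc3 and Sorl1 were not called.

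Downstream of RET the genes moved in both directions. Of 22 adaptors 5 were called lower, 5 higher and 12 not called, and of 23 RAS, PI3K and SRC family components 2 were lower, 6 higher and 15 not called. Beside 27.6% lower and 25.7% higher among all tested genes, the shares of adaptors in either direction and of kinases called higher are near the background and that of kinases called lower is under it. Shc3 (-5.42, SE 0.70; 0, 0.03 and 0.01 FPKM in iNSCs), Grb10 (2.94, SE 0.44), Irs1 (2.06, SE 0.43) and Dok5 (-2.01, SE 0.46) moved most among the adaptors. Among the kinases these were Lyn (5.0, SE 0.32), Fyn (-1.92, SE 0.31), Pik3r1 (1.92, SE 0.26) and Src (1.74, SE 0.24). Fyn, an SRC family kinase linked to GDNF signalling in spermatogonia, stood at 30.1, 32.0 and 63.5 FPKM in SSCs, again highest in replicate 3, and at 9.21, 9.26 and 9.70 FPKM in iNSCs. The kinase gene Map2k1 was not called, at 51.5, 46.3 and 42.7 FPKM in SSCs and 35.0, 36.2 and 37.6 FPKM in iNSCs.

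**Figure D4:**
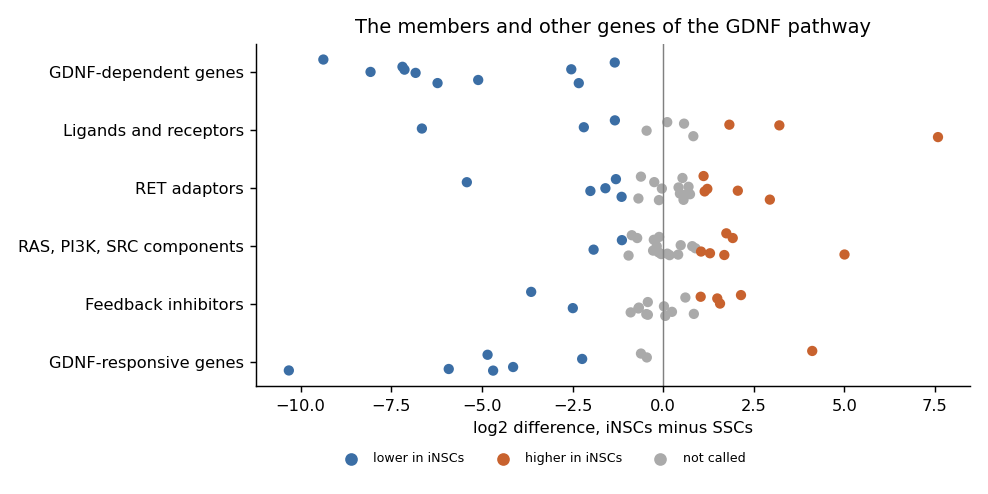
Log2 differences (iNSCs minus SSCs) of the 10 members and of the other tested genes of 5 pathway lists, 1 point per gene with vertical scatter for legibility only, in blue where called lower, orange where called higher and grey where not called. The members and most GDNF-responsive genes lie to the left, while adaptors, kinases and feedback inhibitors lie on both sides of 0.

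Setting each member against the 12 germ cell genes of the same library asked whether it fell by more or less than germ cell transcripts as a whole. Relative to them, Etv5 was higher in iNSCs by 4.11 on the log2 scale, Ret by 3.13 and Id4 by 3.05, and these were also higher without SSCs replicate 3, by 4.47, 3.50 and 3.59. For Etv5 the log2 ratio was -0.24, 0.16 and 1.04 in SSCs and 4.76, 4.07 and 4.46 in iNSCs. For Ret it was 0.07, 0.59 and 1.44 in SSCs and 3.90, 3.59 and 3.99 in iNSCs. Id4 had -2.67, -1.95 and -0.69 in SSCs and 1.60, 0.94 and 1.30 in iNSCs. The groups did not overlap for these 3, nor for Gfra1, which was lower in iNSCs relative to germ cell genes, with 0.20 ± 0.64 in SSCs and -2.43 ± 0.72 in iNSCs (SD, n = 3). They did not overlap for Zbtb16 (difference -1.41) and Pax7 (-1.80) either, but Zbtb16 had only -0.34 (exact two-sided permutation p 0.40) against Ddx4 alone, and the value of Pax7 rests on the prior count of 0.5. For each of these 6 the exact two-sided permutation p was 0.10, the smallest that 3 against 3 libraries allow, and 0.167 adjusted over the 10 members, so none passed a threshold of 0.05. For Bcl6b, Lhx1, T and Eomes the groups overlapped, with differences of -0.79, -1.48, -1.30 and 0.59 (exact two-sided permutation p 0.30, 0.30, 0.50 and 0.50). The value of T, with 0 to 2 counts in an iNSC library, also rests on the prior count and was -0.14 with a prior count of 2.

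**Figure D5:**
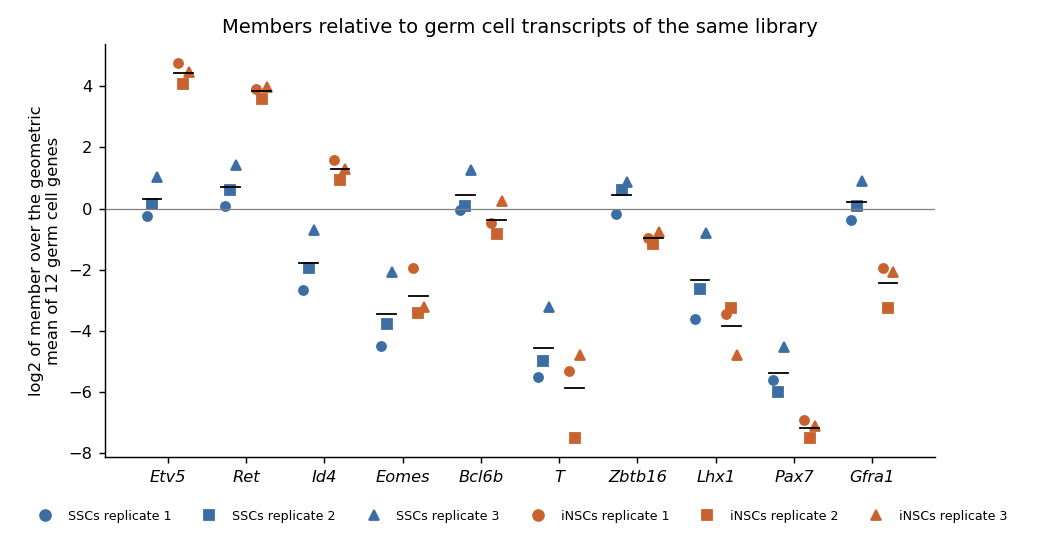
Log2 ratio of each gene to the geometric mean of 12 germ cell genes in the same library, with SSCs in blue, iNSCs in orange, 1 point per library and black bars for the group means. Etv5, Ret and Id4 are higher in every iNSC library than in any SSC library, Gfra1, Zbtb16 and Pax7 lower, and the other 4 genes overlap.

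In order of mean FPKM in the SSCs the members were Bcl6b (70.3 ± 35.6), Etv5 (58.1 ± 25.2), Zbtb16 (48.0 ± 15.4), Ret (46.1 ± 20.7), Gfra1 (40.0 ± 16.5), Id4 (15.9 ± 10.6), Lhx1 (11.7 ± 10.8), Eomes (5.03 ± 4.27), T (4.06 ± 3.39) and Pax7 (0.80 ± 0.41), each as mean ± SD of 3 libraries. Neighbours in this order had overlapping ranges, except T and Pax7. Within a library the order was steadier than these ranges show: Gfra1, Id4, Lhx1, Eomes, T and Pax7 followed each other in that order in each SSC library, and only the 4 leading genes changed places. In the iNSCs the order began with Etv5 (19.6 ± 1.41 FPKM), Ret (7.81 ± 0.67) and Id4 (2.34 ± 0.16) in all 3 libraries, whose ranges did not overlap, followed by Bcl6b (0.80 ± 0.25) and Zbtb16 (0.36 ± 0.05).

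Genes with the most similar pattern were sought for Gfra1, Ret and Etv5 among 13548 genes, by the Euclidean distance between log2 scaled CPM centred on each gene's mean over the 6 libraries. For Gfra1 the nearest were Zic1 (distance 0.617), Tex19.1 (1.18) and Zbtb16 (1.18), itself a member. Zic1 stood at 10.9, 15.1 and 26.1 FPKM in SSCs and at 0.02, 0.04 and 0.03 FPKM in iNSCs. For Ret they were Il17rd (0.201), Abr (0.300) and Igf2bp1 (0.319), and Il17rd had 7.72, 11.3 and 20.1 FPKM in SSCs and 1.81, 2.16 and 1.94 FPKM in iNSCs. For Etv5 they were Phf19 (0.247), Asxl1 (0.254) and Crebrf (0.258), and Asxl1 had 21.9, 31.4 and 43.9 FPKM in SSCs and 10.8, 11.2 and 10.3 FPKM in iNSCs. Like Gfra1, Ret and Etv5, Zic1, Il17rd and Asxl1 were highest in SSCs replicate 3 and lowest among the SSCs in replicate 1. They were chosen for their closeness over these same 6 libraries, so the shared order follows from the choice and supports nothing further.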

How the data were processed

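RNA of 6 libraries was measured, 3 per group. The authors deposited 1 table with raw read counts and FPKM per Ensembl gene and library. FPKM recomputed from the deposited counts, exonic lengths and column totals matched for 100% of values within 0.0051. The submitters' processing notes name HISAT2, DESeq2 and mm9 with no version. Coordinates match GENCODE M21 on GRCm38 (54821 of 55141 identifiers found are identical), so GRCm38 is given. How reads were counted, with or without strand, is not given in the sources used here, so reads of genes overlapping on opposite strands cannot be told apart. Per the labels' protocols, the kit selects polyadenylated RNA and keeps the strand.

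Counts were fitted with edgeR 4.0.16 (R 4.3.3): TMM scaling, the default filter (minimum count 10, total 15), the quasi-likelihood test, two-sided, with Benjamini-Hochberg adjustment over 17387 genes. The procedure was tested on simulated data. Scaled CPM use the TMM-scaled library total. The log2 ratio to 12 germ cell genes used a prior count of 0.5. A limit of 3 counts stands for a count of 0, and intervals are 95% Clopper-Pearson. Alternatives were library totals, edgeR with relative log expression (RLE) scaling, DESeq2 1.42.0, and limma 3.58.1 on log2(FPKM + 1) and log2(FPKM + 0.1). Other filters, no size threshold, a replicate block and leaving out each library were also run. Depths were 18058551 to 20156067 counts, at which 3 counts equal 0.149 to 0.166 CPM. Within a group the libraries differed by more than counting noise.

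The members, gene lists and rules were chosen with earlier results of these data known. Named genes are the 10 members, up to 4 called genes of each list with the largest difference, receptor and ligand genes with a mean of at least 1 FPKM in a group, and the 3 nearest patterns. Genes named as examples of the SSC spread, Dusp6, Spry4, Etv4, Bcl6, Map2k1 and genes that make up a count were added after their values were seen. Nes, Sox1, Itga6 and Cd9 are named outside these rules.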

Additional observations from a re-analysis of the deposited data

How the results depend on the processing

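All 10 members were called lower under library totals, RLE scaling, both other filters, DESeq2, limma on log2(FPKM + 0.1), no size threshold and the replicate block. The same held when any library other than SSCs replicate 3 was left out. They numbered 9 without SSCs replicate 3, where Etv5 had a log2 difference of -0.91, and 9 under limma on log2(FPKM + 1), where Pax7 had -0.82 (limma adjusted p 0.00212). No member was called higher under any of these. All genes called numbered 9267, 9171 with the replicate block, 9189 to 10028 with 1 library left out, 6347 under limma on log2(FPKM + 1) and 12849 with no size threshold. Whether the replicate numbers pair the libraries is not settled by these data. Deviations of same-numbered libraries correlated at 0.11, 0.07 and -0.03 across genes, and those of differently numbered libraries at -0.13 to 0.08. With 3 libraries per group, such values cannot exclude a pairing. The block changed no call of a member. Library totals moved the median of all genes from -0.05 to -0.30, less than the difference of any member. Against Ddx4 alone in place of the 12 germ cell genes, Bcl6b turned to 0.28, and Gfra1 (-1.57), Zbtb16 (-0.34), Pax7 (-0.74), Ret (4.19), Etv5 (5.18) and Id4 (4.11) kept their sign. For Zbtb16 the exact two-sided permutation p then went from 0.10 to 0.40 and the groups were no longer apart. With a prior count of 2, Pax7 turned to 0.12 and T moved from -1.30 to -0.14. The causes were not tested. The median ratio of highest to lowest SSC library was 2.65 on scaled CPM and 2.49 on FPKM. Without SSCs replicate 3, a choice made after the data were seen, fibroblast and feeder markers called lower numbered 8 in place of 2, ligands and receptors called higher 4 in place of 3, and adaptors called lower 4 in place of 5. At this depth T, Lhx1, Eomes, Gfra1 and Pax7 in iNSCs rest on 0 to 40 counts over 3 libraries, so the size of their fall is imprecise.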

Other observations

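Beyond the members, other genes of undifferentiated spermatogonia fell with them while several surface genes used to sort stem cells did not. Of 24 such genes tested, none of them a member, 14 were called lower and 4 higher, beside 27.6% and 25.7% of all tested genes. Pou5f1 and Nanos2, with 11 and 0 counts in the iNSCs together, passed the filter on low counts through the SSC libraries alone. Pou5f1, the pluripotency factor OCT4, fell by 8.05 on the log2 scale (SE 0.19, edgeR adjusted p 5.88e-07) and Lin28a, an RNA-binding repressor of let-7 microRNAs, by 7.08 (SE 0.32, edgeR adjusted p 3.75e-06). Among the SSC libraries, 15 of the 24 were highest in replicate 3 and 7 were lowest there. Of tested genes with at least 10 counts in each SSC library, 38.0% were highest in replicate 3, and the share lowest there was not computed. Foxc2 (13.7, 21.9 and 30.8 FPKM in SSCs replicates 1, 2 and 3) and Taf4b (20.0, 26.4 and 42.4 FPKM) were highest in replicate 3, while Lin28a (66.2, 63.5 and 36.1 FPKM), Utf1 (33.7, 31.8 and 15.3 FPKM) and Uchl1 (481, 381 and 319 FPKM) were lowest there. These 5 were picked as examples after their values were seen. Cdh1 (E-cadherin) rose by 3.89 (SE 0.25, edgeR adjusted p 1.18e-05), Thy1 by 1.51 (SE 0.44, edgeR adjusted p 0.0149) and Itgb1 by 1.22 (SE 0.17, edgeR adjusted p 3.90e-04). Tspan8, described above, is the other that rose. Itga6 (log2 difference 0.29, SE 0.17, edgeR adjusted p 0.148) and Cd9 (0.96, SE 0.13, edgeR adjusted p 3.66e-04) were not called.

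Of 8 T-box genes other than T and Eomes, 4 were called lower and 2 higher, beside 27.6% and 25.7% of all tested genes. Tbx2 rose by 3.94 (SE 0.22, edgeR adjusted p 6.70e-06), from 1.05 to 1.98 FPKM in SSCs to 19.0 to 19.6 FPKM in iNSCs, and Tbx1 by 2.30 (SE 0.52, edgeR adjusted p 0.00482). Epha2, a receptor kinase, was not called and stood at 33.0, 43.6 and 120 FPKM in SSCs and at 74.2, 70.3 and 76.5 FPKM in iNSCs. It was singled out after its values were seen, for being highest in SSCs replicate 3.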
